A study of Mus musculus with 3 samples.

Results

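Heat production that does not run through Ucp1 was examined in 10 genes, chosen by name: Gatm, Gamt, Slc6a8, Ckb, Ckmt1, Ckmt2, Alpl, Atp2a2, Ryr2 and Pm20d1. Each was represented by 1 probe set with 1 gene symbol, so the 10 genes correspond to 10 of 28943 probe sets and to 10 of 19938 genes measured. The arrays came from 3 mouse samples: cultured fibroblasts, cells named DiBA, and a sample named BA whose labelled source and tissue are brown adipose tissue although its description speaks of cultivated cells. By its title, the series is about brown adipocytes made by direct conversion. For strain, genotype, age, conversion factors and time in culture the labels hold no entry, and the treatment is marked as not applicable. Each group was 1 array, so no difference below has a replicate check, a standard error or a p-value, and every statement describes these 3 arrays.

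Brown and beige adipocytes make heat mainly by letting protons re-enter the mitochondrial matrix through Ucp1. Futile cycles that spend ATP offer other routes. In the creatine cycle, kinases phosphorylate creatine with ATP and a phosphatase releases the phosphate again. In the calcium cycle, an ATP-driven pump of the endoplasmic reticulum refills a store that a release channel empties. Pm20d1, a secreted enzyme, joins fatty acids to amino acids, and the products can uncouple mitochondria directly.

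Of the creatine kinases among the members, the mitochondrial Ckmt2 was called, the cytosolic Ckb was bright but not called, and the mitochondrial Ckmt1 was too dim to read, and the 250 bases before their annotated starts are shown to set these isoforms side by side. The sequences are those of RefSeq on GRCm38.p6, read 5′ to 3′ on the gene's strand. Capitals mark E-boxes (CANNTG, the sites of myogenic and other basic helix-loop-helix factors) and a MEF2-type element, searched on both strands. The Ckmt2 window lies at chr13:91876886-91877135 on the minus strand, the Ckb window at chr12:111672339-111672588 on the minus strand, and the windows of 2 annotated Ckmt1 starts at chr2:121357526-121357775 and chr2:121358360-121358609 on the plus strand.
Ckmt2: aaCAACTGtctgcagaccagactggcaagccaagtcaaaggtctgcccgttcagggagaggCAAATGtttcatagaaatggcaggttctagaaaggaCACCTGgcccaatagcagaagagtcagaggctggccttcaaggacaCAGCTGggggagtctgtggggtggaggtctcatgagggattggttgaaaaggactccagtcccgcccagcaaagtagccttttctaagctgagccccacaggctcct
Ckmt1, first start: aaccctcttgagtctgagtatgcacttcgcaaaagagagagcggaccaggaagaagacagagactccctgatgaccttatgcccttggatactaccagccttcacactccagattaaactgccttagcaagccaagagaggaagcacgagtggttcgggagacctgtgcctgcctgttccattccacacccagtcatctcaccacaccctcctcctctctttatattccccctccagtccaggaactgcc
Ckmt1, other start: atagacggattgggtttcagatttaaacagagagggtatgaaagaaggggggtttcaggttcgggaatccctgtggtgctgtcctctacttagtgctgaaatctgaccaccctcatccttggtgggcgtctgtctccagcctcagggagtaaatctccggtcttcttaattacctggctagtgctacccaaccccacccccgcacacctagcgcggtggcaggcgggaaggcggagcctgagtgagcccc
Ckb: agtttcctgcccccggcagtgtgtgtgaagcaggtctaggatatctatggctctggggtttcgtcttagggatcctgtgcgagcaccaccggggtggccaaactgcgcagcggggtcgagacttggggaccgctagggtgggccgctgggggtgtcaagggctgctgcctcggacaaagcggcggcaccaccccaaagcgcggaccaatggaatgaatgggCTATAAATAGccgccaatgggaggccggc
The Ckmt2 window held 4 E-boxes, a number that 3.84% of the 32851 windows of this length in the table reached, while 66.2% held at least 1. Both Ckmt1 windows and the Ckb window held 0. Of the other members with a window, none of them called, Ryr2 had 2, Alpl 1 and 2 at its annotated starts, Gatm 1 and Gamt 0. E-boxes were thus not particular to the called Ckmt2. The MEF2-type letters stood once in the Ckb window, 29 to 20 bases before the start, where they overlap a TATA box (TATAAA). The MEF2-type search fixed only the outer letters and allowed any base between them. This looser pattern occurred in 3.2% of all windows, and the TATA letters in 12.4%. How many windows held the pattern with only A or T at the centre was not counted. The extended site of oestrogen-related receptors (TNAAGGTCA) was in 0 of the 7 members that had a window and in 1.14% of all windows. These matches describe letters only. Pm20d1, Slc6a8 and Atp2a2 had no window in the table.

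Array medians ran from 67.7 to 71.5 in intensity. All 10 brown adipocyte markers measured, Ucp1, Cidea and Adipoq among them, were at least 2-fold higher on both the DiBA and the BA array than on the fibroblast array, and 8 were with readings under 69.2 raised to it. In fibroblasts 0 of the 10 reached 69.2, so this count carries no weight as support. Ucp1 read 23.5 in fibroblasts, 4598 in DiBA and 4995 in BA. DiBA read within the range set by fibroblasts and BA, ends included, for 86.7% of all genes and for 7 of the 10 members, the exceptions being Gamt, Slc6a8 and Ckmt1. Over the 11699 genes at or above 69.2 on some array the share was 84.9%. Ckmt1 was an exception only by readings too dim to order, and Ryr2 was within only by a tie. Exactly equal intensities on DiBA and BA were found for 45.0% of all genes, and Ryr2 had the same intensity on all 3 arrays. The DiBA sample is described as cultivated cells, yet its array also carried markers of skeletal muscle, endothelial cells and macrophages at sums near those of BA, given beside the results below. The labels do not settle what either sample was, and each DiBA value is that of the array labelled DiBA. How the ties arose is not stated, so a tie is no measure of how alike the samples were. A gene was counted as called where an array exceeded the other at least 2-fold on the log2(intensity + 1) scale and the brighter array reached 69.2, the median of every deposited reading.

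Pm20d1 and Ckmt2 were the 2 members called, both higher in DiBA and in BA than in fibroblasts. The other 8 members differed less than 2-fold in both comparisons. Of all genes that passed the intensity limit, 14.7% were called higher and 13.2% lower in DiBA against fibroblasts, and 16.3% and 16.4% in BA against fibroblasts. Of the 10 members, 8 passed that limit, and Pm20d1 and Ckmt2 passed it only through the DiBA and BA arrays, so a count over those 8 carries no weight as support. Over all 10 members the median difference was 0.50 (log2) in DiBA and 0.50 in BA, against a median of 0 over all genes in either comparison. The members were chosen with earlier results known and include Ckmt1 and Ryr2, which were too dim to read. Their median therefore carries no weight as support either. Both comparisons use the same fibroblast array.

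**Figure D1:**
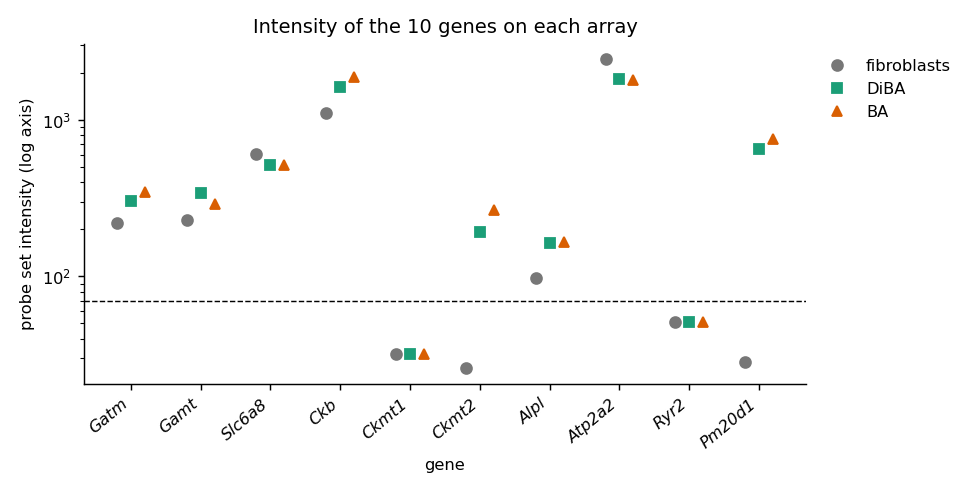
Probe set intensity on a log axis for each of the 10 genes, with 1 point per array (grey circles fibroblasts, green squares DiBA, orange triangles BA); the dashed line is 69.2, the median of every deposited reading. Pm20d1 and Ckmt2 lie under the line in fibroblasts and above it in DiBA and BA, while Ckmt1 and Ryr2 lie under it on all 3 arrays; heights compare arrays within a gene, not genes.

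The genes that make and import creatine differed little between the arrays. Gatm, the glycine amidinotransferase that makes the creatine precursor guanidinoacetate, read 220 in fibroblasts, 304 in DiBA and 346 in BA. It was thus lowest in fibroblasts and highest in BA, 1.38-fold and 1.57-fold above fibroblasts. Gamt, the methyltransferase that completes creatine, read 229 in fibroblasts, 342 in DiBA and 292 in BA. Of the members, Gamt had the largest positive difference of DiBA from BA, 0.23 (log2), and 12.1% of genes passing the limit lay at least as far in that direction. Slc6a8, the plasma membrane transporter that takes up creatine, read 611 in fibroblasts, 514 in DiBA and 519 in BA. Its level was highest in fibroblasts, by 0.25 (log2) over DiBA and 0.23 over BA, a difference of at most 1.19-fold. For Gatm, at least as large a positive difference was shown by 23.7% of genes passing the limit in DiBA and 21.9% in BA, so neither value stood out from the array as a whole.

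Of the creatine kinases among the members, Ckmt2 was the one called higher on the DiBA and BA arrays than on the fibroblast array. Ckmt2 encodes the sarcomeric mitochondrial creatine kinase, known from heart, skeletal muscle and brown fat. Its probe set, 10410984, read 25.8 in fibroblasts, 191 in DiBA and 266 in BA. DiBA was 7.16-fold and BA 9.96-fold above fibroblasts, and 3.05% and 2.36% of genes passing the limit lay at least as high. The fibroblast reading is in the dim range where background weighs heavily, and with readings under 69.2 raised to 69.2 the folds were 2.74 and 3.81. Ckmt1, the ubiquitous mitochondrial kinase, read 31.7 in fibroblasts, 32.0 in DiBA and 31.7 in BA. All 3 Ckmt1 readings lay under 69.2, so no level or order can be read for this gene. Ckb, the cytosolic brain-type kinase that is also found in thermogenic fat mitochondria, read 1117 in fibroblasts, 1619 in DiBA and 1881 in BA. Ckb was bright on every array and ordered as Gatm was, 1.45-fold higher in DiBA and 1.68-fold in BA. At least as large a positive difference was shown by 22.3% and 20.2% of genes passing the limit.

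Ckm, the muscle-type cytosolic kinase and the remaining isoform of the family, is no member but completes the family. It read 94.7 in fibroblasts, 2489 in DiBA and 2805 in BA, which is 26.0-fold and 29.3-fold. With it, 2 of the 4 kinases were called higher and 0 lower in both comparisons with fibroblasts. Ckm was also on the list of skeletal muscle markers. Of these 16 markers, 15 were called higher in DiBA and 16 in BA, with median differences of 3.42 and 3.71 (log2), and their summed intensity was 2530 in fibroblasts, 18716 in DiBA and 21140 in BA. Pvalb, the calcium buffer parvalbumin of fast fibres, differed by 5.40 and 5.62, and Myh4, a fast myosin heavy chain, by 4.76 and 4.94. With low readings raised to 69.2 the same counts of markers were called, the medians were 2.66 and 3.01, Pvalb differed by 4.71 and 4.93, and Myh4 by 4.03 and 4.21. None of the 16 was at 0 on any array, and all 16 lay at or above 69.2 on the DiBA and BA arrays. In fibroblasts 9 of them did, so the counts of calls carry no weight as support. The part of these muscle genes in the Ckmt2 and Ckm readings was not tested.

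Alpl, the tissue-nonspecific alkaline phosphatase that hydrolyses phosphocreatine in thermogenic fat, read 98.3 in fibroblasts, 164 in DiBA and 165 in BA. It was 1.66-fold higher in DiBA and 1.67-fold higher in BA, and DiBA and BA were within 1.01-fold of each other. Positive differences at least this large were found for 18.7% and 20.4% of genes passing the limit. Alpl is also a gene of mineralising cells. Of 8 osteoblast markers 4 were measured, Sp7, Ibsp, Dmp1 and Phex, and all 4 lay under 69.2 on every array, with sums of 105 in fibroblasts, 123 in DiBA and 103 in BA. Of the genes listed beside Alpl for phosphate handling, Phospho1, a phosphatase of phosphoethanolamine and phosphocholine, was 18.9-fold higher in DiBA and 21.4-fold in BA. Ank, a membrane protein of pyrophosphate export, was 3.27-fold and 3.54-fold higher. Slc20a1, a sodium-phosphate cotransporter, differed by -2.77 (log2) in DiBA and by -3.00 in BA. In both comparisons 2 of the 5 genes measured on this list were called higher and 1 lower.

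**Figure D2:**
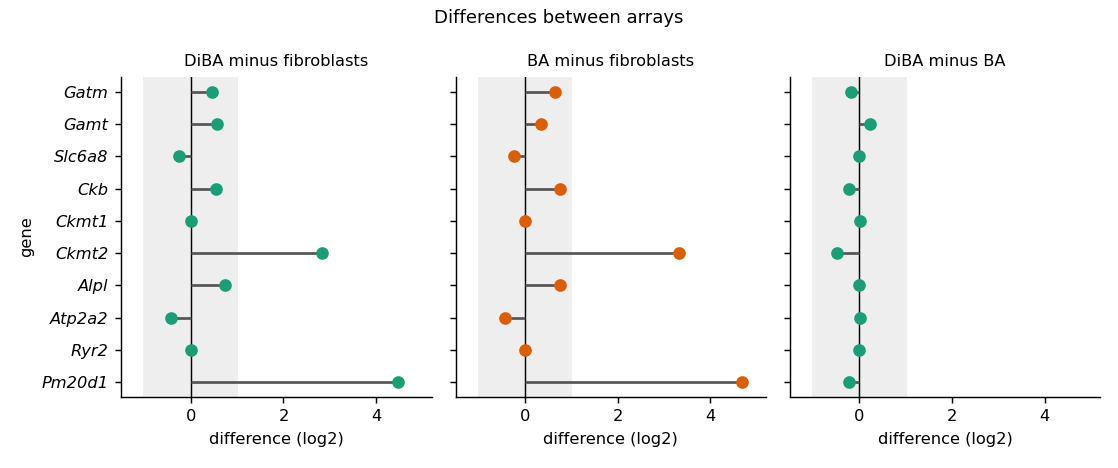
Difference of log2(intensity + 1) for each of the 10 genes in the 3 comparisons of arrays, 1 array per group; the grey band spans differences under 2-fold. Pm20d1 (4.46 and 4.68) and Ckmt2 (2.84 and 3.32) lie outside the band against fibroblasts, and all 10 genes lie inside it for DiBA minus BA.

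Of the calcium-cycling members, Atp2a2 was not higher in DiBA or BA, and Ryr2 could not be read. Atp2a2, which encodes the calcium pump SERCA2, read 2443 in fibroblasts, 1819 in DiBA and 1796 in BA. Its level was highest in fibroblasts, and the differences were -0.43 (log2) in DiBA and -0.44 in BA, 1.34-fold and 1.36-fold. Differences at least as low were found for 29.2% and 30.4% of genes passing the limit. Ryr2, the ryanodine receptor of heart that is paired with SERCA2 in the calcium cycle of beige fat, read 51.4 on all 3 arrays. Identical readings under 69.2 give neither a level nor a comparison for this gene. Cardiac muscle markers, of which 8 were measured, summed to 3969 in fibroblasts, 796 in DiBA and 916 in BA. Of the fibroblast sum, Actc1, a cardiac actin, gave 1651, Myl4 1223 and Tnnt2 672. Tnnt2 differed by -3.31 in DiBA and -3.35 in BA, and Actc1 by -3.35 and -2.91. On that list 0 were called higher and 4 lower in DiBA, and 1 higher (Myoz2) and 4 lower in BA. With low readings raised to 69.2, 3 were lower in either comparison, and the list's median was -0.64 in both in place of -1.20 and -1.24.

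Other isoforms of the pump and the channel differed at least 2-fold. Atp2a1, the SERCA1 pump of fast muscle, read 111 in fibroblasts, 2014 in DiBA and 2363 in BA, 18.1-fold and 21.2-fold higher. Ryr1, the release channel of skeletal muscle, read 71.3, 192 and 249 in the same order, 2.67-fold and 3.46-fold higher. Casq1, the calsequestrin that stores calcium in fast muscle, was 11.1-fold and 13.6-fold higher. All 3 were higher where the skeletal muscle markers given beside Ckmt2 were higher, and the part of those markers in them was likewise not tested. Atp2a3, the SERCA3 pump, differed by 0.87 and 0.98 (log2), short of 2-fold, and by 0.17 and 0.27 with low readings raised to 69.2. Atp2b1, a calcium pump of the plasma membrane, was called lower at -1.35 and -1.72. Of 7 calcium pumps measured, 1 was called higher and 1 lower in both comparisons.

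The inositol trisphosphate receptors, the other release channels of the store, went opposite ways. Itpr2 read 133 in fibroblasts, 1166 in DiBA and 1369 in BA, 8.70-fold and 10.2-fold higher. Itpr3 read 343, 134 and 99.4 in the same order, with differences of -1.35 and -1.78. Ryr3, a further ryanodine receptor, lay under 69.2 on all arrays. Of 5 release channels measured, 2 were called higher and 1 lower in DiBA and in BA. Among the pump's regulators, Sln and Pln, which encode the inhibitory peptides sarcolipin and phospholamban, read under 69.2 on all 3 arrays. S100a1, a calcium-binding protein that acts on pump and channel, was 32.7-fold and 33.2-fold higher and was the 1 gene called of 5 on that list.

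**Figure D3:**
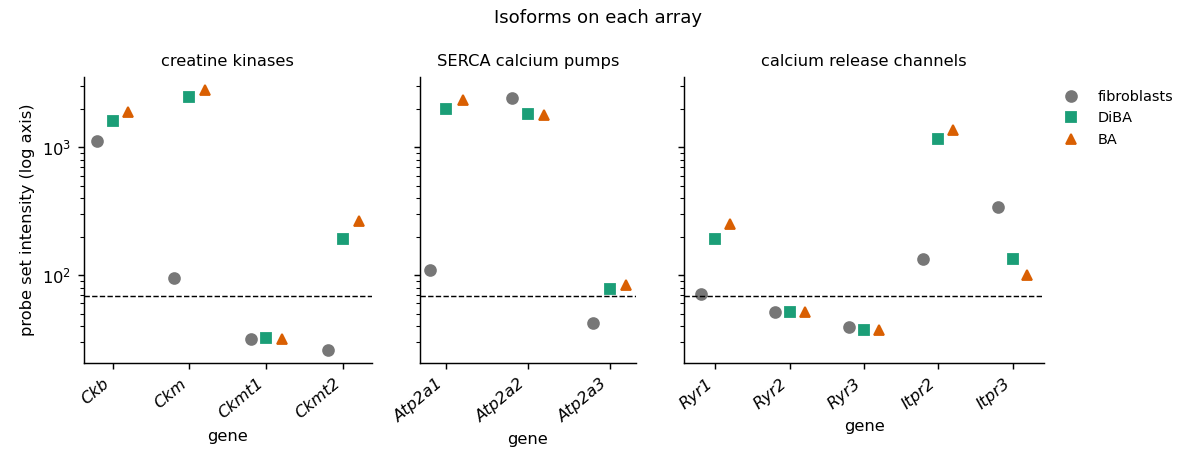
Probe set intensity on a log axis by array (grey circles fibroblasts, green squares DiBA, orange triangles BA) for the creatine kinases, the SERCA pumps and the release channels; the dashed line is 69.2 and heights compare arrays within a gene only. Ckm, Ckmt2, Atp2a1, Ryr1 and Itpr2 are higher in DiBA and BA than in fibroblasts, Itpr3 is lower, and Ckmt1, Ryr2 and Ryr3 lie under the line on all 3 arrays.

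Genes of calcium storage and entry were mixed. Calr and Calu, which encode the endoplasmic reticulum proteins calreticulin and calumenin, differed by -1.17 and -1.12 in DiBA and by -1.45 and -1.40 in BA. Stim1, the store's calcium sensor, was 2.34-fold and 2.64-fold higher. Of 13 genes of stores and channel regulation measured, 3 were called higher and 3 lower in DiBA, and 3 higher and 2 lower in BA. The third lower gene in DiBA was Casq2, the cardiac calsequestrin, at -1.14, which was -0.38 with low readings raised to 69.2. Trdn, a protein of the muscle release complex, was among the higher genes at 2.58 and 2.52, as the mean of 19 probe sets whose single differences ran from 0 to 5.17 in DiBA. Its fibroblast reading was dim, 15.4, and with low readings raised to 69.2 its differences were 1.13 and 1.09.

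Pm20d1 showed the largest difference of the 10 members in both comparisons with fibroblasts. Its probe set, 10349694, read 28.5 in fibroblasts, 649 in DiBA and 758 in BA. DiBA was 22.0-fold and BA 25.7-fold above fibroblasts, and 0.835% and 0.797% of genes passing the limit lay at least as high. As with Ckmt2 the fibroblast reading was dim, and with readings under 69.2 raised to it the folds were 9.26 and 10.8. Its relative Pm20d2 was 1.72-fold higher in DiBA and 2.24-fold in BA. Aspa, which splits N-acetylaspartate, was 32.6-fold and 37.7-fold higher over a dim fibroblast reading of 26.7, and 12.9-fold and 14.9-fold with low readings raised to 69.2. Faah, a hydrolase that can break down N-acyl amino acids, read 39.5 on all 3 arrays. Of the 5 genes of N-acyl amino acid handling, 2 were called higher in DiBA and 3 in BA, with 0 lower. Of all genes passing the limit, 14.7% and 16.3% were called higher. Pm20d1, Aspa and Pm20d2 passed it only through the DiBA and BA arrays, so these counts carry no weight as support. Markers of endothelial cells and macrophages were also higher on these arrays, 7 of 7 and 6 of 6 in DiBA and 7 of 7 and 5 of 6 in BA, with summed intensities of 464, 2890 and 3453 for the endothelial list in fibroblasts, DiBA and BA, and of 452, 1557 and 1529 for the macrophage list. With low readings raised to 69.2, 6 endothelial and 4 macrophage markers were called in DiBA, and 7 and 4 in BA. In fibroblasts 2 endothelial and 3 macrophage markers reached 69.2, so these counts carry no weight as support. The part of these cell types in the Pm20d1 reading was not tested. In such RNA from many cells, fewer cells of a type and less RNA per cell cannot be told apart.

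Between DiBA and BA, 0 of the 10 members were called, where 1.75% of genes passing the limit were higher and 0% lower in DiBA. The 10 differences ran from -0.48 (log2) for Ckmt2 to 0.23 for Gamt, with a median of -0.01. Ckmt2 was 1.39-fold lower in DiBA, 191 against 266, and 39 of 11076 genes passing the limit, 0.352%, lay as low or lower. Of these 11076 genes, 26.2% were exact ties and 11 were at least 1.5-fold lower in DiBA. A small difference therefore ranks far out on this side. Ckb, Gatm and Pm20d1 were lower in DiBA by smaller amounts, at -0.22, -0.18 and -0.22. The differences of Slc6a8, Alpl, Atp2a2 and Ckmt1 were within 0.02 of 0. With each array centred on its median, Atp2a2 changed from 0.02 to -0.06 and Ckmt1 from 0.01 to -0.06, so these have no direction.

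The place of DiBA between the other arrays was expressed as the percent of the fibroblast to BA distance that DiBA covered in linear intensity. Pm20d1 stood at 85.1% and Ckmt2 at 68.7%. Over the 1897 genes called higher in BA than in fibroblasts the median was 83.7%, with quartiles of 77.0% and 90.1%. Ckmt2 was thus below the lower quartile, with 169 of these genes (8.91%) at or below it, and Pm20d1 close to the middle. The 16 skeletal muscle markers ran from 75.6% to 94.1% with a median of 85.7%, and the 10 brown adipocyte markers from 71.2% to 101% with a median of 94.7%. Ckmt2 was below the lowest member of both lists, but genes of other lists that were called higher in BA stood lower still. These were Ryr1 at 68.0%, Kdr at 65.1%, Vwf at 63.9%, Pm20d2 at 58.2% and Myoz2 at 55.9%. A low place was thus not particular to Ckmt2. Without replicate arrays the error of these percentages is unknown.

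The genes whose pair of differences from fibroblasts lay nearest to those of the 2 called members were sought among 11170 genes, by Euclidean distance over the 3 arrays. For Ckmt2 these were Nat8l, the synthase of N-acetylaspartate, at a distance of 0.03 (log2), Tmod4, a tropomodulin of skeletal muscle, at 0.05, and the long noncoding RNA Lncenc1 at 0.06. Nat8l read 47.9 in fibroblasts, 356 in DiBA and 482 in BA. For Pm20d1 the nearest were Pdk2, a kinase that inhibits pyruvate dehydrogenase, at 0.04, Hsd11b1, the enzyme that regenerates active glucocorticoid, at 0.04, and B3galt2, a galactosyltransferase, at 0.05. With 3 arrays many genes must lie close together by this measure.

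Outside the 10 members, 58 of 69 listed genes of creatine and phosphate handling, calcium pumps, stores and channels, N-acyl amino acids and amino acid supply were measured. Of the 49 that passed the limit, 14 (28.6%) were called higher and 7 (14.3%) lower in DiBA against fibroblasts, and 15 (30.6%) and 7 (14.3%) in BA. The shares over all genes are the 14.7% and 13.2%, and 16.3% and 16.4%, given above. These lists were chosen with earlier results of these data known. Of the genes called higher, Ckm, Atp2a1, Ryr1, Casq1 and Trdn are the muscle genes described above. Casq1, Trdn, Aspa and Pm20d2 passed the limit only through the DiBA and BA arrays, so these shares carry no weight as support. The median over the 58 was 0 in both comparisons, as over all genes. Between DiBA and BA 0 of them were called. On the list of Ucp1 thermogenesis, 9 of 9 genes measured were called higher in DiBA and in BA, with medians of 3.51 and 3.63 (log2). Apart from Esrra and Prdm16, they passed the limit only through the DiBA and BA arrays. This count therefore carries no weight as support. With low readings raised to 69.2, 8 were called and the medians were 2.86 and 2.84. Prdm16 on this list was also called higher in DiBA than in BA. It read 94.3 in fibroblasts, 1084 in DiBA and 223 in BA. Ucp1, Cidea, Cox8b, Dio2 and Ppargc1a are also brown adipocyte markers, so this list is not separate from the marker result above.

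**Figure D4:**
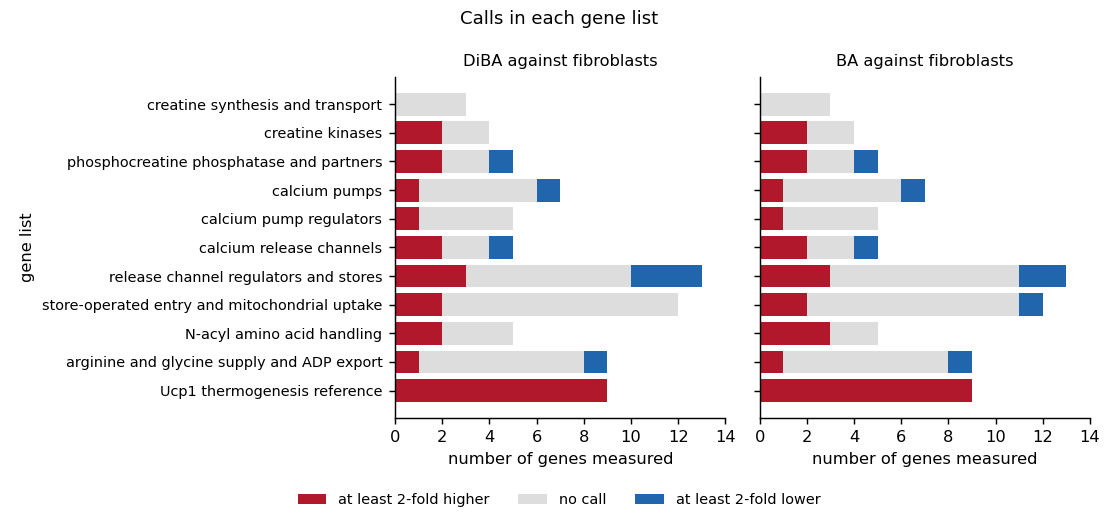
Number of measured genes in each of 11 lists that were at least 2-fold higher (red), at least 2-fold lower (blue) or not called (grey) in DiBA and in BA against the same fibroblast array. All 9 genes of the Ucp1 list are red in both panels, while 0 of 3 genes of creatine synthesis and transport are called in either. Apart from Esrra and Prdm16, the genes of the Ucp1 list passed the intensity limit only through the DiBA and BA arrays.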

How the data were processed

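Total RNA of 3 samples was measured on 1 Affymetrix array each. The authors deposited 1 linear intensity per probe set and array, for which the submitters' processing notes name Affymetrix Expression Console. Its version and its background, summarization and normalization steps are not stated there. Of 28943 probe sets, 21789 had 1 gene symbol in the platform's probe table, 1621 had several and were not used for names, and 5533 were not listed. Probe sets of a gene were averaged as log2(intensity + 1), giving 19938 genes. Calls needed a 2-fold difference and an intensity of 69.2 (the median of all values) on the brighter array, computed with Python 3.11.15 and pandas 2.3.3. The call was also run on simulated data, with an assumed noise and with folds planted in genes bright in fibroblasts. The arrays gave no spread to set that noise, so the outcome carries no weight as support. With 1 array per group no test between groups was run, and the number of arrays limits the precision.

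The 10 members and all lists were chosen with earlier results of these data known. Named were the members, called genes of the 11 pathway lists, leading markers of 8 cell type lists, and the 3 genes nearest to each member called in both comparisons with fibroblasts. Genes named without a call are given as values. Of the 8 marker lists, neural and Schwann cell markers had 1 of 5 measured genes called higher in DiBA and in BA, and the kidney and liver list 0 of 4. The 9 alternatives covered centring, quantile normalization, the intensity limit, low readings, the pseudocount, the choice of probe set and the fold.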

Additional observations from a re-analysis of the deposited data

How the results depend on the processing

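No paired analysis was possible because each group holds 1 array, and for the same reason no array could be left out. Over the 9 alternatives, the 30 differences of the 10 members gave 265 values on the same side of the call as reported, 1 that lost it, 4 that gained it and 0 called values with the other sign. Each member has 1 probe set, so the choice of probe set could change no value, and leaving out the limit could remove no call. The 265 are therefore no measure of robustness. The lost call was Ckmt2 in DiBA with a 75th percentile limit (intensity 246), which its 191 does not reach, so members higher in DiBA than in fibroblasts were 1 in place of 2. With a 1.5-fold threshold members higher in BA than in fibroblasts were 5 in place of 2, adding Alpl, Ckb and Gatm, where 22.9% of genes passing the limit were called, and Alpl was added in DiBA, where 21.4% were. Under the other settings the counts of members were within 1.5 times those reported. Over the settings that change values, Pm20d1 ran from 3.21 to 4.46 (log2) in DiBA and from 3.43 to 4.69 in BA, and Ckmt2 from 1.45 to 2.84 and from 1.93 to 3.32, the low ends with dim readings raised to 69.2. Over all genes, those higher in DiBA than in BA numbered 456 at 1.5-fold, 33 at 4-fold and 76 with the 75th percentile limit against 194 as reported, and those lower 11 at 1.5-fold and 1 without a limit against 0. Against fibroblasts, a 4-fold threshold left 731 higher and 372 lower in DiBA (1703 and 1530 reported) and 862 and 674 in BA (1897 and 1913), and 1.5-fold gave 2747 lower in DiBA and 3049 lower in BA. Members under 69.2 on all arrays, Ckmt1 and Ryr2, cannot be judged at this signal.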

Other observations

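The supply of creatine's building blocks was mixed. Shmt1, the cytosolic enzyme that interconverts serine and glycine, was 2.20-fold higher in DiBA and 2.39-fold higher in BA than in fibroblasts, while its mitochondrial counterpart Shmt2 differed by -1.59 and -1.79 (log2). The arginase genes Arg1 and Arg2 lay under 69.2 on every array, and Asl, an enzyme of arginine synthesis, read 179 on all 3. Slc25a4 and Slc25a5, the carriers that exchange ADP and ATP across the inner mitochondrial membrane, differed by at most 0.14. Of 9 genes on this list, 1 was called higher and 1 lower in both comparisons.

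Of 12 genes of store-operated entry and mitochondrial calcium uptake, Stim1 and Mcur1 were the 2 called higher in DiBA and in BA. Mcur1, a regulator of the mitochondrial calcium uniporter, read 219 in fibroblasts, 1749 in DiBA and 1853 in BA, 7.96-fold and 8.44-fold higher. Mcu, the pore of the uniporter, differed by -0.80 and -0.70 without reaching 2-fold. Orai2, a plasma membrane calcium channel, was called lower in BA at -1.29 and stood at -0.88 in DiBA, and this difference between the comparisons was not tested.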
